A study of Mus musculus with 5 samples.

Results

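On cDNA arrays of mouse embryos, 29 of 15217 rows with a value at every stage read low during implantation and were back near the level of E2.5 (embryonic day 2.5) shortly after it. The rows were chosen by these values. Each had a log2 ratio to E2.5 at or below -1.5 in both the E4.5 and the E4.75 column, and above -0.5 in both the E5.5 and the E6.0 column, with E3.5 left free. The 29 rows are 0.191% of the table. The platform annotation gives 1 gene symbol to 15 of them and none to the other 14.

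The samples were pools of untreated ICR mouse embryos of 5 stages, from E3.5 to E6.0, each set against E2.5 embryos on 2-colour arrays. The oviduct was flushed for E2.5 embryos and the uterus for E3.5 embryos, and the older ones were dissected out of the uterus. The RNA was amplified by PCR before labelling. Each stage had 3 pools. The mean pool held 106 embryos for E2.5 and 61 for E3.5, then 47 and 28 for the stages of the dip, and 17 and 19 for the last stages. The protocol gives the third and the last column 4.8 and 6.5 days, and the titles (E4.75, E6.0) were followed here. There is 1 column of values per stage, so no value has a replicate error and no difference could be tested. In such pooled embryos, fewer cells of a type and less RNA per cell cannot be told apart.

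At E3.5 the mouse embryo is a blastocyst, with an outer trophectoderm and an inner cell mass. Around E4.5 it has left the zona pellucida, the inner cell mass sorts into epiblast and primitive endoderm, and the trophectoderm attaches to the uterine wall. After implantation the epiblast and the extraembryonic ectoderm form the egg cylinder.

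The symbols are the annotation's labels for array rows and nothing more. Over 2085 pairs of rows that share a symbol, the log2 ratios of a pair correlated between -0.03 and 0.01 in the 5 columns, across rows and with no test. Only 3 of the 15 named members had another row of their symbol, 4 such rows in all. None of these 4 was at or below -1.5 in both columns of the dip, where 2.18% of all rows were. The other rows annotated Trim28 read -1.36 and -0.32 at E4.5, and -0.15 and 0.11 at E4.75. The other row annotated Cbs read -0.16 and -0.08 at these stages, and that annotated Ewsr1 read 0.70 and 0.83. The functions given below belong to the annotated genes, and whether these rows measure those genes was not established.

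The 29 rows can be described as a deep and a shallow set. In 9 rows the mean of E4.5 and E4.75 was at or below -3, from -8.75 to -3.18, and in the other 20 it ran from -2.56 to -1.58. This line at -3 was drawn after the values had been seen. The deep set had a median log2 ratio of -5.16 at E4.5, and -7.52 at E4.75. The shallow set stood at -1.87 and -1.68.

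**Figure D1:**
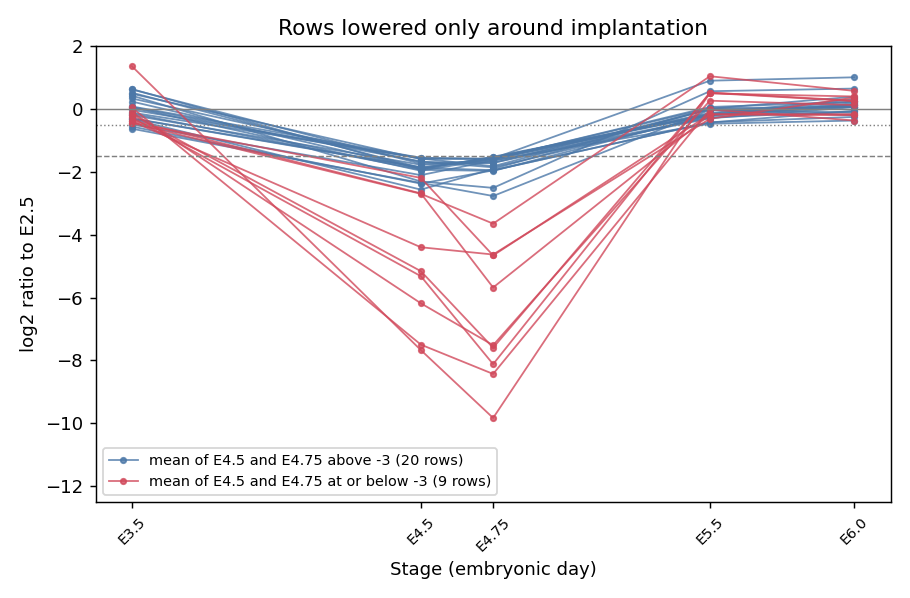
The log2 ratio to E2.5 (vertical axis) is drawn against embryonic day for each of the 29 rows, with 1 line per row; the dashed line marks -1.5 and the dotted line -0.5. The 9 deep rows reach down to -9.83 at E4.75, the 20 shallow rows go no lower than -2.77, and both sets lie closer to 0 at E3.5 and at the last stages.

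The deepest of all was row 140, annotated Abcb8, a transporter of the mitochondrial inner membrane. It went from 1.36 at E3.5 to -7.67 and then -9.83 at E4.5 and E4.75, and back to 0.51 and 0.24 at E5.5 and E6.0. It was the lowest complete row of the table in both columns of the dip. With the log base read as 2, it stood 910-fold below E2.5 at E4.75, and its rise from there to E5.5 was 1292-fold. No intensities were used, so how close the signal came to background is unknown.

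Row 572, annotated Bcs1l, a chaperone in the assembly of respiratory complex III, had the third deepest mean loss. It went from -0.10 at E3.5 to -6.18 and -7.52 in the columns of the dip, and back to 0.26 and 0.12. The unnamed row 158 went from 0.04 to -7.50 and -8.43, and back to -0.02 and -0.37. Outside the dip, neither row moved further from E2.5 than that last value.

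The unnamed row 9544 went from -0.27 at E3.5 to -5.32 at E4.5, fell further to -8.12 at E4.75, and came back to 0.52 and 0.26. The unnamed row 8062 followed nearly the same course, from -0.18 to -5.16 and -7.60, and back to 0.49 and 0.39. In both, the ratio fell by more than 2 log2 units within the dip. Row 7323, annotated Gm4981, went from -0.39 to -4.40 and -4.63, nearly level, and came back to -0.32 and 0.36.

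The other 3 deep rows read between -2.70 and -2.20 at E4.5, the shallowest of the deep set there. Row 518, annotated BC003965, went from -0.37 at E3.5 to -2.69 and then -5.68, and back to -0.18 and -0.20. The unnamed row 10288 went from -0.44 to -2.20 and -4.66, and came back to -0.17 in both last columns. The unnamed row 14405 went from -0.45 to -2.70 and -3.65, and rose to 1.04 and 0.57. All 9 deep rows were lower at E4.75 than at E4.5, with a median difference (E4.75 minus E4.5) of -2.16 log2 units. Of the shallow rows 9 of 20 were lower at E4.75, of all 332 rows low in both columns 47.6%, and of all complete rows 37.8%. The deep set was cut on the mean of these same columns. Values also spread wider at E4.75 (standard deviation 0.87) than at E4.5 (0.78). The further fall was not particular to members. Outside them, row 7299 went from -5.80 to -8.63 and row 7305 from -3.66 to -7.16. Rows 7312 (-3.45 to -3.11) and 9638 (-4.22 to -3.98) went the other way.

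Most of the named members are shallow. Among them are rows annotated Lsm2, a protein of the ring that binds U6 small nuclear RNA, and Ewsr1, an RNA-binding protein. Row 2569, annotated Lsm2, went from -0.33 at E3.5 to -2.57 and -1.91, and back to 0.00 and 0.39. Row 1517, annotated Ewsr1, went from 0.63 to -1.93 and -1.52, and back to -0.18 and 0.14. It was the member closest to the loss limit.

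Trim28 encodes a corepressor that silences endogenous retroviruses in the early embryo, and Maf1 a repressor of RNA polymerase III. Row 420, annotated Trim28, went from 0.04 at E3.5 to -1.97 and -1.59, and back to 0.02 and 0.06. Outside the dip this row was nearly level with E2.5. Row 10572, annotated Maf1, had the smallest mean loss of the 29, from 0.08 to -1.56 and -1.60, and back to -0.20 and 0.13.

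Some rows are annotated with enzymes. Row 966 carries the name Ppa1, a cytosolic inorganic pyrophosphatase, and went from 0.06 at E3.5 to -1.67 and -1.86, and back to -0.23 and 0.11. Row 7572, annotated Cbs, which makes cystathionine from homocysteine and serine, went from 0.62 to -1.75 and -1.72, and back to -0.02 and 0.06. Row 1826, annotated Entpd5, a nucleoside diphosphatase of the endoplasmic reticulum, went from -0.50 to -2.11 and -1.64, and back to -0.47 and -0.37. That row was below E2.5 at every stage and was the member closest to the return limit.

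Row 9868, annotated Rassf1, a scaffold of the Hippo pathway, went from -0.30 at E3.5 to -1.86 and -1.61, and back to -0.16 and 0.24. Row 10284, annotated Cyrib, which binds the GTPase Rac1, went from 0.23 to -1.91 and -1.55, and back to -0.20 and 0.07. Row 11244, annotated Mrpl44, a protein of the mitochondrial ribosome, went from 0.33 to -1.69 and -1.71, and back to -0.30 and 0.05. All 3 were slightly below E2.5 at E5.5 and slightly above it at E6.0. Row 1375, annotated Ccdc97, stayed below E2.5 throughout, from -0.56 to -2.38 and -1.96, and back to -0.43 and -0.26.

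The other 9 shallow rows have no name in the annotation. The deepest of them was row 3271, at -2.36 and -2.77 in the columns of the dip, and it was also the lowest member at E3.5, at -0.63. Row 2551 went from 0.42 to -2.31 and -2.51, and back to 0.56 and 0.64. Row 7926 went from 0.48 to -1.60 and -1.58, and back to 0.89 and 1.00, the highest value of a member at E6.0. Row 13692 went from -0.15 to -1.94 and -1.97, and back to -0.20 and 0.18. Row 3029 went from -0.31 to -1.87 and -1.95, and back to -0.43 and -0.07. Both were nearly level within the dip. Row 2979 began higher, at 0.51, and went to -1.88 and -1.55, and back to -0.13 and 0.30. The 3 remaining rows, 11945, 4445 and 2507, read -1.78 to -1.56 and -1.83 to -1.60 in the columns of the dip.

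The stage that the rule left free was E3.5. There the members ran from -0.63 to 1.36 with a median of -0.12, against -0.01 over all complete rows. Of the 29, 23 (79.3%) lay within 0.5 of E2.5, where 76.8% of all rows did. None was at least 2-fold lower at E3.5, where 1.73% of all rows were, and 1 was at least 2-fold higher (row 140), where 3.35% were. These shares are near those of the whole table.

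Rows that stayed low read lower at E3.5, and so did other rows low in the dip. At or below -1.5 in all columns from E4.5 onwards were 194 rows, 1.27% of the table, and their median at E3.5 was -0.58. Of these 194, 37 (19.1%) were at least 2-fold lower at E3.5 already. The other 109 rows at or below -1.5 in both columns of the dip, not members, had a median of -0.31 at E3.5. Of these 109, 19 (17.4%) were at least 2-fold lower there. Within the members, the deep set had a median of -0.27 at E3.5 and the shallow set 0.01. These differences were not tested, because rows are not replicates. All columns share the E2.5 reference, and its part in the values at E3.5 was not tested.

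**Figure D2:**
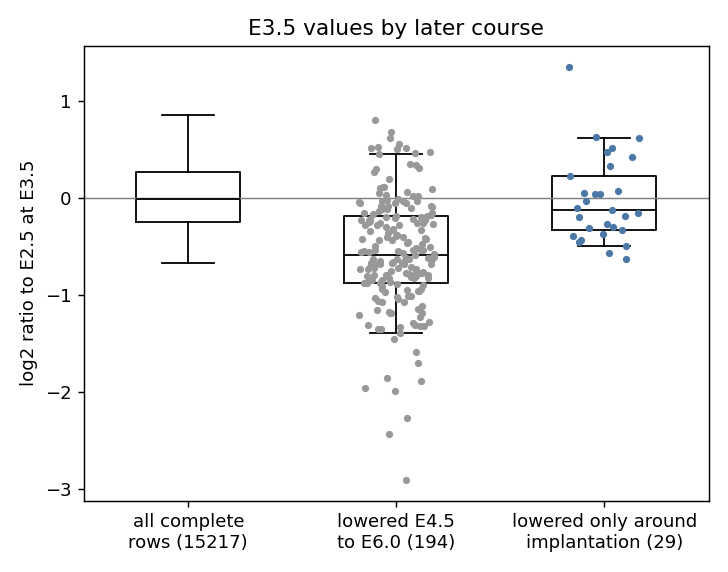
The log2 ratio to E2.5 at E3.5 (vertical axis) is shown for all complete rows, for the 194 rows low from E4.5 through E6.0 and for the 29 members; boxes give the quartiles and the median, whiskers the 5th and 95th percentiles, and points single rows, drawn for the smaller sets. The members centre near 0 (median -0.12), and the rows that stayed low centre at -0.58.

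By E5.5 the members lay between -0.47 and 1.04 with a median of -0.13, and by E6.0 between -0.37 and 1.00 with a median of 0.12. The lower ends are set by the rule. The rise from E4.75 to E5.5 had a median of 219-fold in the deep set (19.9 to 1292) and 2.97-fold in the shallow set (2.24 to 8.42). The last 2 columns differed by a median of 0.26 log2 units in the members, in either direction, against 0.24 over all rows. Of the shallow rows 18 of 20 read higher at E6.0 than at E5.5, and of the deep rows 1 of 9, where 53.2% of all rows did.

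Most rows that were low in both columns of the dip did not come back. The first column of the dip held 3.87% of rows at or below -1.5 and the second 3.9%, and 332 rows (2.18%) were so in both. Of these 332, the 29 members make up 8.73% and the 194 rows that stayed low 58.4%, and 109 rows lay between. Above -0.5 at E6.0 but not at E5.5 were 17 of the 109, and the reverse held for 3. Members were 10.8% of the 83 rows with a mean loss at or below -3, and 8.03% of the 249 shallower rows. Among the 10 lowest complete rows at E4.75, 5 were members and 1 was a row that stayed low, and among the 10 lowest at E4.5 these counts were 3 and 5. Of the 23 rows at or below -4 in both columns, 6 were members and 13 had stayed low.

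**Figure D3:**
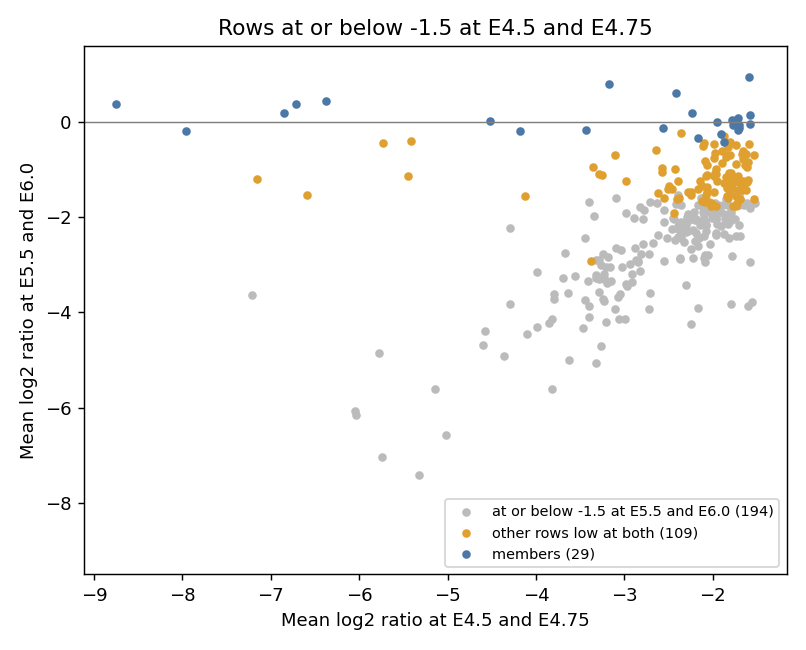
For the 332 rows at or below -1.5 at both E4.5 and E4.75, the mean log2 ratio at E5.5 and E6.0 (vertical axis) is plotted against the mean at E4.5 and E4.75 (horizontal axis), with 1 point per row. The 29 members form a band along 0 from the shallowest to the deepest loss, with its lower edge set by the rule. The late values of the 194 rows that stayed low tend to run down with their loss. The limits that define these groups keep their late values apart.

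The limits of the rule cut through a continuous range. The 5 members nearest the loss limit had their higher value of the dip between -1.56 and -1.52, and the 5 rows nearest outside it between -1.496 and -1.455. Row 2394, annotated Ints8, missed by reading -1.496 at E4.75, with -2.38 at E4.5. Row 2675, annotated Jade1, was low in both columns and missed on the return, with -0.51 at E5.5. Several rows on either side of the limits thus differ by hundredths of a log2 unit.

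The mirror pattern, at or above 1.5 in both columns of the dip and below 0.5 in both later ones, was met by 17 rows (0.112%). They were 10.3% of the 165 rows high in both columns, close to the 8.73% that members take of the rows low in both. A loss in the last 2 columns alone, at or below -1.5 there and above -0.5 in the columns of the dip, was met by 6 rows (0.0394%). The direction of the ratios rests on the sample titles. If they ran the other way, members and mirror rows would change places.

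A dip in a single column was most frequent at E4.75. Of the rows at or below -1.5 there, 56 (9.44%) were above -0.5 in each of the other 4 columns. The same count was 9 at E4.5, 4 at E3.5, 2 at E6.0 and 0 at E5.5. The lowest of the rows low at E4.5 alone read -5.21, and the lowest of those low at E4.75 alone read -3.75. Losses as large as those of the shallow members thus also occurred in 1 column without the other.

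Other rows with a similar course have no value at E4.75 and could not meet the rule. In 23 rows only the E4.75 value was missing, while E4.5 alone was missing in 2 rows, E6.0 alone in 1 and no other column alone. Of the 23, 10 (43.5%) were at or below -1.5 at E4.5, and 9 of these 10 were above -0.5 in both late columns. Among complete rows low at E4.5, 85 of 589 (14.4%) came back in that way.

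The lowest reading of the whole table at E4.5 is in this set. Row 6993, annotated Eml2, a microtubule-binding protein, went from 0.21 at E3.5 to -8.13 at E4.5 and was at 0.18 and 0.17 in the late columns. Row 7288, annotated Slc49a4, went from 0.13 to -6.93 and was later at 0.30 and -0.02. The unnamed row 12598 went from 0.48 to -5.20 and was later at 1.81 and 1.16. Of the 9 rows, 6 were at or below -3 at E4.5, so they resemble the deep members in the columns they have. No source used here says why their E4.75 values are missing, and whether these rows would have met the rule is unknown. Other rows without an E4.75 value were low at other stages. Rows 10752, 11773, 15036, 15084, 15131 and 15174 read -5.39 to -2.49 at E3.5 and -3.40 to -1.82 at E6.0. At E5.5 they read 0.37 to 0.67. A missing E4.75 value thus did not go with low readings at E4.5 alone. Among the 23 rows, 4 pairs lay 6 places apart in the table, 3 pairs 18 and 5 pairs 24. Distances of 30 and 48 places held 2 and 3 pairs, and those of 19, 42, 43 and 47 places 1 each. No other distance up to 48 places held any. Whether the place of a row had a part in the missing values was not tested.

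The place of a row in the table moved with its values. Values of rows 24 places apart correlated (Spearman) at 0.22 in the E3.5 column, 0.20 and 0.21 in the columns of the dip, and 0.11 and 0.16 in the late columns. At 6 places the coefficients were 0.18, 0.14, 0.12, 0.11 and 0.16 in the order of the stages, and at 9 places they were -0.02, -0.06, -0.04, 0.02 and 0.03. The median over the 48 distances computed was between 0.01 and 0.05 in each column. These correlations are across rows, which share their arrays, and carry no test. The distances were picked with the values in view.

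**Figure D4:**
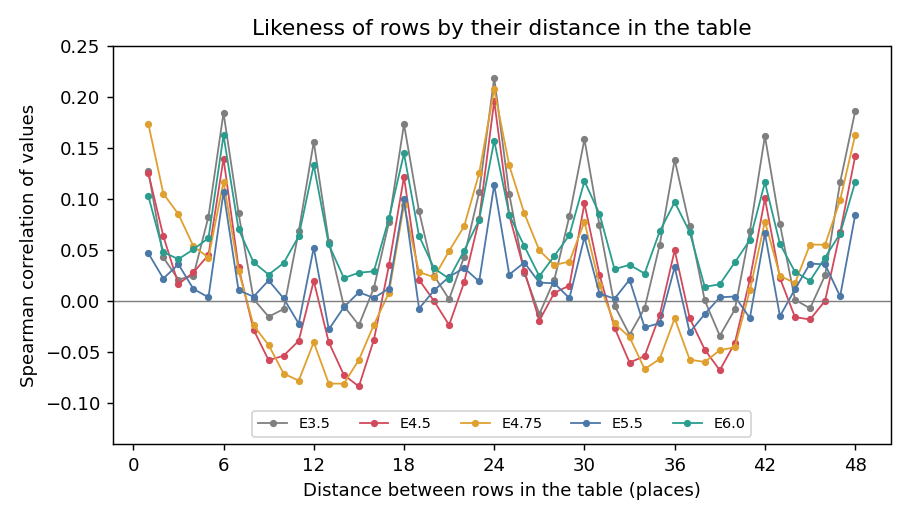
The Spearman correlation between the values of rows a fixed number of places apart (vertical axis) is plotted against that distance for the 5 columns, over all rows with values. Values are high at 6, 18, 24 and 48 places. They are highest at 24 in every column but E6.0, where 6 places gave the highest value. At 12, 30, 36 and 42 places they are also raised at E3.5 (0.14 to 0.16) and E6.0 (0.10 to 0.13). At those distances the E4.75 column is lower (-0.04 to 0.08). At 1, 23 and 25 places the E4.75 column is the highest of the 5 (0.13 to 0.17). There E3.5 (0.10 to 0.13), E4.5 (0.08 to 0.13) and E6.0 (0.08 to 0.10) are raised too, and E5.5 less (0.02 to 0.05).

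Many deep members had low rows at these distances. A row at or below -1.5 in both columns of the dip lay 6, 18 or 24 places away from 7 of the 9 deep members and from 5 of the 20 shallow ones. Over all complete rows the share with such a row was 11.9%, and among the 194 rows that stayed low it was 15.5%. Among the 63 of these 194 with a mean loss at or below -3 it was 19.0%. Among the 109 rows between, neither members nor low in both late columns, it was 24.8%, and among the 11 of them with a mean loss at or below -3 it was 6 rows (54.5%). At 5, 17 or 23 places, such a row lay near 1 of the 9 deep and 0 of the 20 shallow members, near 12.2% of all complete rows and near 4 of those 11 rows (36.4%). The deepest pair of members, rows 140 and 158, are 18 places apart, and so are the members 2551 and 2569.

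A run of rows from 518 to 572 shows the spacing. Rows 518, 524, 542, 548, 566 and 572 follow each other at steps of 6 and 18 places. Their E4.5 values were -2.69, -2.08, -3.39, -3.52, -4.34 and -6.18. At E4.75 row 548 has no value, and the other 5 read -5.68, -4.63, -4.85, -6.56 and -7.52. The first and the last are members, annotated BC003965 and Bcs1l, and row 548 is 1 of the 9 rows with a similar course and no E4.75 value. The complete rows between them came back less far, with -0.66, -1.37 and -1.09 at E5.5 in rows 524, 542 and 566.

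Another run lies near row 7323, the member annotated Gm4981. Rows 7299, 7305 and 7323, at steps of 6 and 18 places, read -5.80, -3.66 and -4.40 at E4.5, and -8.63, -7.16 and -4.63 at E4.75. Nearby rows 7270 and 7288, 18 places apart, read -3.19 and -6.93 at E4.5 with no value at E4.75. Row 7312, 24 places on, read -3.45 and -3.11 in the dip and -3.57 and -3.59 later, so it stayed low. At E5.5 row 7299, annotated Efl1, was still at -3.68, and row 7305, annotated Fbp2, was at -0.73. Rows 7270 and 7288 had both come back, with -0.07 and 0.02 in the late columns of the first and 0.30 and -0.02 in those of the second. Of the rows at such steps that were low in the dip, some returned together, as did the member pairs 140 and 158, and 2551 and 2569, and others did not. No source used here gives the printing layout of the arrays, and the part of row position in the passing loss was not tested.

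**Figure D5:**
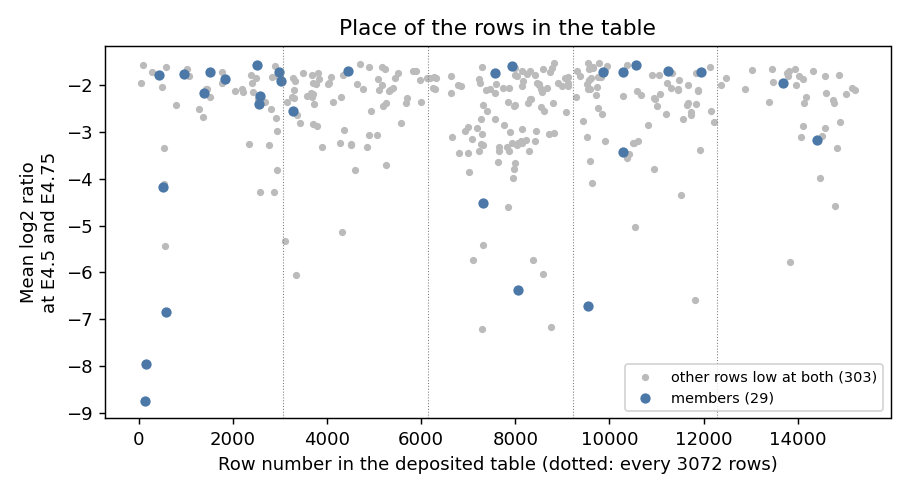
The mean log2 ratio at E4.5 and E4.75 (vertical axis) is plotted against the row number in the deposited table. Points are the 29 members and the other 303 rows low at both stages. Dotted lines mark runs of 3072 rows, a length set here, with the last run slightly shorter. Of the members, 14 lie in the first run, including the 3 deepest, against 38 of the other low rows.

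On a coarser scale, the table was cut here into 5 nearly equal runs. The first holds 20.1% of complete rows and 14 of the 29 members (48.3%). Of the rows that stayed low, 10.8% lie there, and 34.5% lie in the middle run, which holds 4 members. In the dip the first run had column medians of 0.05 and 0.22, above the -0.03 and 0.08 of all complete rows. Its medians were also higher at E3.5 (0.12 against -0.01), E5.5 (0.04 against -0.04) and E6.0 (0.25 against -0.01). Of the 58 rows directly next to a member, 2 (3.45%) were at or below -1.5 in both columns of the dip, a share set beside 2.18% of all rows. With the medians of short runs of consecutive rows subtracted, 31 rows met the rule, 23 of them members. With the median of every 24th row within such a run subtracted, 23 met it, 15 of them members.

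Gene lists for embryonic lineages, maternal tissue and general functions held 1 member. It was Bcs1l, among 201 rows annotated with a symbol on 10 lists, and it had been put on the list of mitochondrial respiration with its value known. Over all complete rows 0.191% were members. In all, 7 of the 201 rows were at or below -1.5 in both columns of the dip, beside 2.18% of all complete rows. That was 1 row of 25 for mitochondrial respiration, 1 of 12 for trophectoderm and trophoblast (Id2), 1 of 12 for inner cell mass and epiblast (Klf5) and 1 of 17 for glycolysis (Gapdh). It was 1 of 42 for actin cytoskeleton and adhesion (Cfl1), 1 of 16 for stress and early response (Ier3) and 1 of 31 for cell cycle (Cenpu). No such row was among the 21 of primitive and visceral endoderm, the 10 of uterus and decidua or the 15 of blood.

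Of these rows, that annotated Id2, a dominant-negative helix-loop-helix factor of the trophectoderm, came nearest to the members. Row 11322 went from -0.27 at E3.5 to -1.51 and -1.97, and back to -0.65 and -0.32, and missed the rule on E5.5 alone. The row annotated Cfl1, the actin-severing protein cofilin, was far lower, at -6.38 and -6.80, and was at -1.25 and -1.84 in the late columns. List medians in the first column of the dip ran from -0.49 to 0.12, and in the second from -0.46 to 0.26, on both sides of those of all complete rows. The uterus and decidua list stood at -0.27 and -0.22, and the blood list at -0.49 and 0.06. Because it was not established that rows measure their annotated genes, these lists cannot check the labelled stages. The part of the listed genes in the passing loss was not tested.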

How the data were processed

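Mouse embryos of 5 stages were compared with E2.5 on 2-colour arrays. Cy3 marked the named stage and Cy5 the E2.5 embryos, per the labels. The deposited table holds the authors' log ratios, taken here as log2. The base, background correction, normalization, filters and any averaging of arrays were not given in the sources used here. No intensities were used, so the signal behind a ratio is unknown, and precision is limited by how few arrays there are. Rows with 5 values were kept (15217), and 30 rows lacked at least 1.

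Rows were named through the platform annotation and updated by Entrez identifier with RefSeq's GRCm38.p6 gene table: 8062 complete rows had 1 symbol, 368 several and 6787 none. Counts and ranges were computed in Python 3.11.15 with pandas 2.3.3 and SciPy 1.17.1. The code of the rule was run on simulated rows with small noise and a planted dip. That checks the code only and says nothing about the real rows. With 1 column per stage there is no test.

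The members and lists were chosen with earlier results of these data known. Named rows were set by a written rule. It took the 20 deepest members, the 10 largest returns and the extremes at E3.5 and E6.0. It also took members sharing a symbol (none did), members on a list, and the 5 rows on either side of the loss limit. Of the 5 rows outside that limit, only the nearest, row 2394, is named here, and the others are given by their range. Rows named for their place, a missing value, the return limit, as low rows on a list or as further members were chosen after their values were seen. Alternatives were other centring, scaling, limits, single conditions and symbol averages.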

Additional observations from a re-analysis of the deposited data

How the results depend on the processing

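The number of rows that met the rule, 29 as deposited, moved with the limits by construction: it was 116 with a loss limit of -1 and 11 with -2, 55 with a return limit of -1 and 10 with 0. Without its E4.5 condition the rule took 147 rows, without E4.75 85, without E5.5 46 and without E6.0 32. With columns scaled to one spread it took 15, all of them members; scaling shrinks the columns of the dip. Symbol averages, a smaller set, gave 12. With column medians subtracted it took 37, which included the 29. Mirror rows, 17 as deposited, numbered 66, 8, 38 and 9 for the limits in that order, 51, 48, 27 and 20 without 1 condition, 11 with scaling and 2 as symbol averages. The share of members at least 2-fold lower at E3.5 ran from 0% to 6.25%. Subtracting medians of every 24th row, and rows 6, 18 and 24 places away, were chosen after seeing the data. The 58 member values in the columns of the dip ran up to -1.27 under scaling, above the loss limit. All stayed below 0 under centring and scaling, but this could not have come out otherwise. The rule took values at or below -1.5, scaling keeps the sign, and the column medians are small. No paired analysis was possible because each stage has 1 column. The limit that signal over background sets on the deepest ratios is unknown.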
